A study of Homo sapiens with 4 samples.

Results

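MYC, its paralogs MYCN and MYCL, the neighbouring long noncoding RNA gene PVT1, and 6 genes of the MAX and MLX network (MAX, MXD3, MXI1, MNT, MLX and MLXIP) were examined in K562 cells that expressed the fusion RUNX1::ERG. These 10 genes, chosen by name from 25702 genes in the count tables, were matched by NCBI gene number. K562 is a long-established human line that came from chronic myeloid leukemia and has erythroid features. It was sequenced after poly(A) enrichment in 2 libraries transfected with the LeGO-iG2 plasmid carrying RUNX1::ERG and 2 libraries transfected with the empty LeGO-iG2 plasmid. Neither group received a drug. LeGO-iG2 is a lentiviral expression plasmid that also encodes green fluorescent protein, it was delivered by nucleofection, and the methods describe no sorting of fluorescent cells before RNA extraction.

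MYC is a basic helix-loop-helix leucine zipper transcription factor that binds DNA as a dimer with MAX, most often at the E-box CACGTG, and drives genes for growth, ribosome production and cell division. MAX also pairs with the MXD proteins (MXD1, MXD3, MXD4 and MXI1), with MNT and with MGA, which can occupy the same sites. The MXD proteins and MNT mostly repress through SIN3 and histone deacetylases. MLX is a MAX-like protein whose partners MLXIP (MondoA) and MLXIPL (ChREBP) respond to glucose-derived metabolites, and MNT, MXD1 and MXD4 can join either hub. PVT1 is the neighbour of MYC, and the pair is often gained together in cancers.

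The E-box was looked for in the RefSeq promoter windows of these genes (GRCh38.p14, 250 bases before to 50 after each annotated start, 300 in all). Windows were at hand for 8 of the 10 genes, 11 windows in all, and not for MYC and PVT1. CACGTG, which reads the same on both strands, was in 2 of the 11, those of MNT and MLX, and in 7.26% of all 35116 windows. The stretches are shown because they hold the recognition letters shared by the whole network, in capitals. That of MNT is on the minus strand at chr17:2401208-2401293, with the E-box beginning 193 bases upstream of the start, and that of MLX is on the plus strand at chr17:42567010-42567095, with the E-box beginning 50 bases upstream.
MNT: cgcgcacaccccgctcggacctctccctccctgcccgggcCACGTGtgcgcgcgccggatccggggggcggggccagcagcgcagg
MLX: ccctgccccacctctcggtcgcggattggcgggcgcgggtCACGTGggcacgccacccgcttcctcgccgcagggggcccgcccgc

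The fusion retains the DNA-binding domains of RUNX1 and ERG, so a letter string for each was also searched on both strands. CCGGAAG, an ETS string, was in 1 window, of MAX, against 10.3% of all windows, and TGTGGT, a RUNX string, was in 1 window, of MXI1, against 13.1%. Both stretches are given with the string in capitals, at chr14:65101744-65101830 on the minus strand for MAX and at chr10:110207393-110207478 on the plus strand for MXI1. The letters alone do not show a binding site.
MAX: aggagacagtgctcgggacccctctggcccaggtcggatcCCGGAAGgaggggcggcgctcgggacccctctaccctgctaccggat
MXI1: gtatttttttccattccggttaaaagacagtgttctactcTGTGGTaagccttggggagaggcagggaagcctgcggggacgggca

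The libraries summed to between 59695387 and 82352144 counts. With the empty vector, ERG had 4 counts per library, against 80443 in replicate 1 and 27218 in replicate 2 of RUNX1::ERG, and the counts do not separate transcripts of the plasmid from endogenous ones. The erythroid markers HBG1, HBG2, HBZ, GATA1, KLF1, TFRC, EPOR and ALAS2 were above 1 normalized CPM in every library, and EPOR, the erythropoietin receptor, rose from 41.6 in both empty vector libraries to 89.1 and 62.8 (log2 fold change 0.87, adjusted p = 0.03 in edgeR). Of 12 markers of other cells, 6 were under 1 normalized CPM in every library, and the summed level of the 12 ran from 107 to 124, most of it from EPCAM and CD3D. Both of these were lower in the RUNX1::ERG libraries, EPCAM at 75.4 and 81.2 against 55.5 and 58.2 and CD3D at 32.5 and 34.7 against 20.5 and 23.6, without passing the test. COL1A1, a fibroblast collagen, rose from 4.13 and 3.62 to 22 and 19.6 (log2 fold change 2.42, adjusted p = 0.0002 in edgeR), and CD14, a monocyte marker, from 0.183 and 0.425 to 3.85 and 1.99 (3.24, adjusted p = 0.0058 in edgeR). The other markers of both cell types, COL1A2 and FCGR3A, were at 1.96 to 2.58 and at 0.0417 to 0.697, and the part of these markers in the results was not tested. Normalized CPM (counts scaled to a common library size with edgeR's TMM factors) are used throughout. As these are bulk libraries, fewer cells expressing a gene and less RNA per cell cannot be told apart.

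MYC, MYCL and PVT1 were lower with RUNX1::ERG, by 2.16 to 3.26 times, and no partner or antagonist passed the test. Of the 10 genes, 9 passed the filter on low counts and 3 had an adjusted p under 0.05, all 3 lower. Over all 15394 genes tested, 1.15% were called lower and 4.79% called in either direction. At an unadjusted p under 0.05 there were also 3 genes, against 18% of all genes tested. In 5 of the 9 (MYC, MYCL, PVT1, MAX and MLXIP) the higher RUNX1::ERG library was under the lower empty vector library, which held for 22.1% of all genes tested, and the reverse held in 0 of the 9, against 25.1%. The median log2 fold change was -0.19 over the 9 and -0.00167 over all genes tested.

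**Figure D1:**
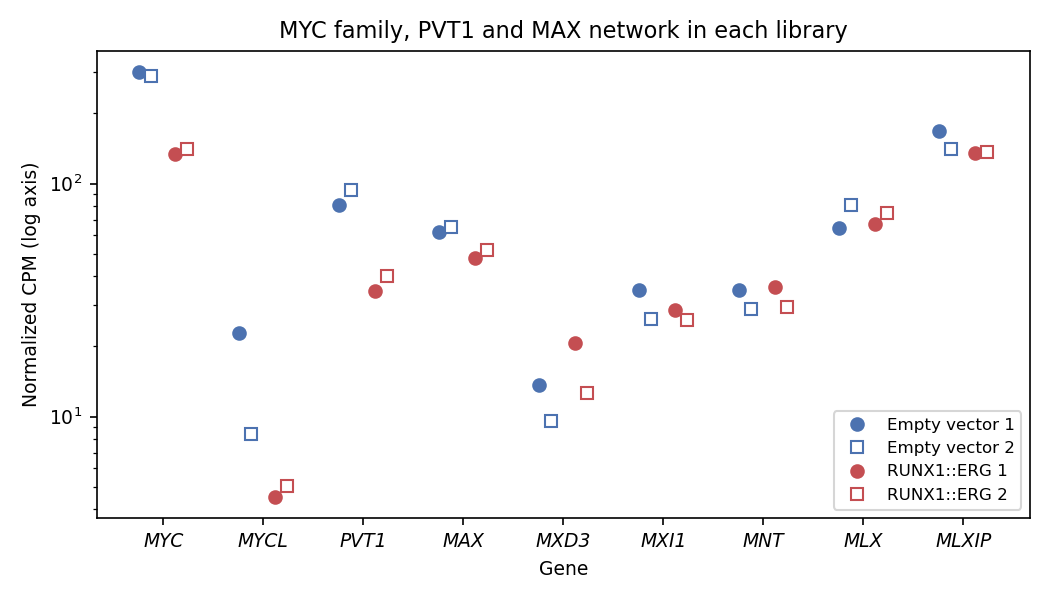
Normalized CPM (log axis) of the 9 genes with counts, by library; blue points are the empty vector and red points RUNX1::ERG, with circles for replicate 1 and open squares for replicate 2. The red points of MYC, MYCL and PVT1 sit below both blue points, and the red and blue points of MXD3, MXI1, MNT and MLX overlap.

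MYC (NCBI gene 4609, chromosome 8 of GRCh37, 128747680 to 128755197, plus strand) had 301 and 289 normalized CPM in empty vector replicates 1 and 2, and 134 and 140 in RUNX1::ERG replicates 1 and 2. The 2 groups were far apart and the libraries within each were close together, with the higher 1.04 times the lower among the empty vector libraries and 1.05 times among the RUNX1::ERG libraries. The log2 fold change was -1.11 (standard error 0.15, 95% interval -1.44 to -0.78, Benjamini-Hochberg adjusted p = 0.00201, quasi-likelihood test of edgeR), and the level fell by 53.6%. Of the 9138 tested genes with a mean of at least 10 normalized CPM, MYC ranked 50 from the lowest log2 fold change, and 1.46% of them were called lower. ERG differed more between the RUNX1::ERG libraries than MYC did. In normalized CPM, ERG was 954 in replicate 1 and 379 in replicate 2, a ratio of 2.52, whereas MYC was 0.955 times as high in replicate 1 as in replicate 2.

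PVT1 (NCBI gene 5820, chromosome 8, 128806772 to 129199347, plus strand) was at 80.9 and 93.5 normalized CPM in the empty vector libraries and at 34.7 and 40.1 with RUNX1::ERG. Its groups did not overlap either. The log2 fold change was -1.22 (standard error 0.17, 95% interval -1.6 to -0.85, edgeR adjusted p = 0.00257), and the level fell by 57.2%, and PVT1 ranked 35 from the lowest in the same 9138 genes. PVT1 starts 59.1 kb downstream of the start of MYC on the same strand. MYC had 3.72 and 3.09 counts per PVT1 count in the empty vector libraries and 3.86 and 3.5 in the RUNX1::ERG libraries, so these ratios overlapped between the groups, and their log2 values differed by 0.11 against a pooled SD of 0.15 (n = 2 per group).

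Most genes annotated around MYC were not matched to a row in the count tables, so their expression was not assessed. Of 25 annotated genes that start within 1 Mb of MYC or PVT1, 8 had a row in the count tables and 3 passed the filter, MYC, PVT1 and MIR1207, a microRNA gene inside PVT1 with 16 and 12 counts in the empty vector libraries and 6 in each RUNX1::ERG library, which cannot be told apart from reads of PVT1. MIR1207 did not pass the test (log2 fold change -1.47, adjusted p = 0.36 in edgeR). POU5F1B, a processed copy of the pluripotency factor POU5F1 upstream of MYC, had at most 6 counts in a library, and CASC8 had 0 in all 4. CASC11, annotated on the other strand over part of MYC, was not analysed here, and no strand setting is given for the counting.

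MYCL (NCBI gene 4610, chromosome 1, 40361100 to 40367928, minus strand), the paralog first found amplified in lung cancer, was at 22.8 and 8.44 normalized CPM in the empty vector libraries and at 4.53 and 5.05 with RUNX1::ERG. Both empty vector libraries were higher, but they stood apart from each other, replicate 1 at 2.7 times replicate 2. Only 39 of the 9138 genes had a wider gap between the empty vector libraries, where the median gap was 1.14 times. MYCL had a log2 fold change of -1.7 (standard error 0.39, 95% interval -2.56 to -0.85, adjusted p = 0.032 in edgeR). It rested largely on empty vector replicate 1, since without that library it was -0.82 (adjusted p = 0.072 in edgeR), and it did not pass once RUNX1::ERG replicate 1 was left out (adjusted p = 0.087), with scaling by library totals (0.058) or with limma voom (0.079).

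MYCN (NCBI gene 4613, chromosome 2, 16080672 to 16087129), the paralog amplified in neuroblastoma, had 0 counts in all 4 libraries. The limit set by a count of 0, taken as 3 counts, was 0.0364 CPM in the deepest library and 0.0503 CPM in the shallowest, and covers counting error alone. Its antisense gene MYCNOS also had 0 counts.

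MAX (NCBI gene 4149, chromosome 14, 65472892 to 65569413, minus strand), the obligate partner of MYC, was at 61.9 and 65 normalized CPM in the empty vector libraries and at 48.1 and 51.9 with RUNX1::ERG. Both RUNX1::ERG libraries were lower, by far less than for MYC, and the difference did not pass the test. The log2 fold change was -0.34 (standard error 0.16, 95% interval -0.7 to 0.01, adjusted p = 0.29 in edgeR, unadjusted p = 0.055). MAX overlaps FNTB on the other strand, which had 1103 to 1684 counts in a library against 3727 to 4583 for MAX.

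MXD3 (NCBI gene 83463, chromosome 5, 176728462 to 176739758, minus strand), a MAX partner that antagonizes MYC and is linked to cycling cells, was at 13.6 and 9.6 normalized CPM in the empty vector libraries and at 20.6 and 12.6 with RUNX1::ERG. RUNX1::ERG replicate 1 stood above the rest, and replicate 2 lay between the empty vector libraries. The log2 fold change was 0.52 (standard error 0.27, 95% interval -0.08 to 1.12, adjusted p = 0.36 in edgeR). Without RUNX1::ERG replicate 1 it was 0.12, and without RUNX1::ERG replicate 2 it was 0.82. MXD3 overlaps PRELID1 on the other strand and RAB24 on its own strand, and both had more counts than MXD3 in every library, so its counts are uncertain.

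MXI1 (NCBI gene 4601, chromosome 10, 111967363 to 112047123, plus strand), another antagonist that pairs with MAX, was at 34.9 and 26.3 normalized CPM in the empty vector libraries and at 28.7 and 26 with RUNX1::ERG. MNT (NCBI gene 4335, chromosome 17, 2287367 to 2304398, minus strand), the most widely expressed antagonist, was at 35 and 28.9 with the empty vector and at 36.1 and 29.5 with RUNX1::ERG. In both genes the groups overlapped. Their log2 fold changes were -0.16 (95% interval -0.6 to 0.27) and 0.04 (-0.39 to 0.46), with adjusted p-values of 0.75 and 0.96 in edgeR, so a change of either as large as that of MYC lies outside these intervals.

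MLX (NCBI gene 6945, chromosome 17, 40719090 to 40725257, plus strand), the hub of the parallel network, was at 64.6 and 80.7 normalized CPM in the empty vector libraries and at 67 and 75 with RUNX1::ERG, and the groups overlapped. MLXIP (NCBI gene 22877, chromosome 12, 122516628 to 122631894, plus strand), its glucose-sensing partner, was at 169 and 140 with the empty vector and at 135 and 136 with RUNX1::ERG. The RUNX1::ERG libraries of MLXIP were just below the lower empty vector library. Their log2 fold changes were -0.03 (95% interval -0.41 to 0.35) and -0.19 (-0.54 to 0.16), with adjusted p-values of 0.96 and 0.6 in edgeR. The sign of MLX, MNT and MXI1 changed with a library left out, and that of MLX also with scaling by library totals.

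**Figure D2:**
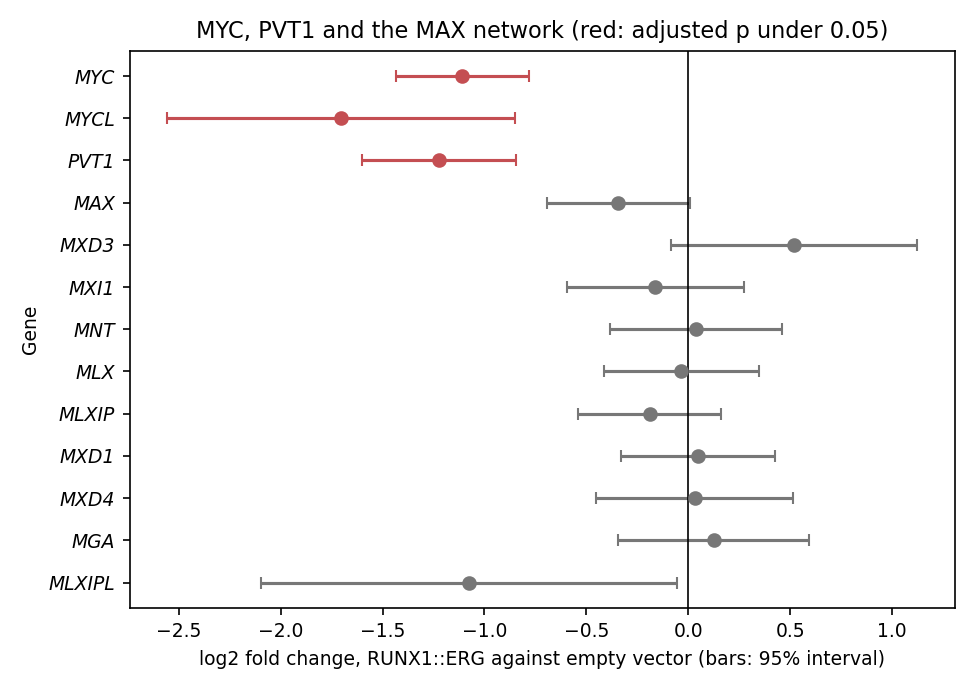
Fitted log2 fold change of RUNX1::ERG against the empty vector (x axis) for each gene of the network (y axis); points are estimates from 2 libraries per group, bars are 95% intervals, and red marks an adjusted p under 0.05. MYC, MYCL and PVT1 lie between -1.7 and -1.11, and the intervals of the 6 partners and antagonists among the 10 genes include 0.

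On the scale of level per kb of the canonical transcript, MYC was the highest of the 10 genes with the empty vector, at 79.3 ± 2.31 (SD, n = 2) normalized CPM per kb. PVT1 (35.7 ± 3.65), MAX (31.6 ± 1.09) and MLX (30.8 ± 4.83) came next (SD, n = 2), and MAX and MLX differed by less than their spread. MLXIP was at 18.3, MXD3 at 10.9, MXI1 at 8.82, MNT at 6.49 and MYCL at 4.44, and MXD3 and MXI1 overlapped, as did MNT and MYCL. With RUNX1::ERG, MYC was at 36.8 ± 1.2 (SD, n = 2), still the highest of the 10, followed by MLX at 30.1 ± 2.4 and MAX at 24.9 ± 1.35 (SD, n = 2), whose values no longer overlapped. MYC stood at percentile 92.4 of tested genes on this scale with the empty vector and at percentile 84.3 with RUNX1::ERG. The order below MYC depends on the length used. Per kb of all annotated exons joined, a choice made after the data were seen, the empty vector level was 48.3 for MYC, 17.1 for MLX, 11.1 for MLXIP, 10.1 for MAX and 3.43 for PVT1, which has many alternative exons.

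The ratio of MYC to each partner or antagonist was taken within each library, where scaling cancels out. MYC had 4.87 and 4.45 counts per MAX count in empty vector replicates 1 and 2, and 2.78 and 2.7 in RUNX1::ERG replicates 1 and 2. The log2 ratio fell by 0.76 (pooled SD 0.07, n = 2 per group), a factor of 1.7. Per kb of transcript, this is 2.63 and 2.4 MYC per MAX with the empty vector and 1.5 and 1.46 with RUNX1::ERG.

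Against the antagonists, the ratio of MYC to MXD3 counts was 22.2 and 30.1 with the empty vector and 6.5 and 11.1 with RUNX1::ERG, a log2 difference of -1.61 (pooled SD 0.44). MYC to MXI1 went from 8.63 and 11 to 4.66 and 5.38 (log2 difference -0.96, pooled SD 0.2), and MYC to MNT from 8.62 and 10 to 3.71 and 4.76 (-1.14, pooled SD 0.21). The ratio therefore moved most against MXD3, whose own values varied most. MXD1, MXD3, MXD4, MXI1, MNT and MGA were also summed per kb of canonical transcript. MYC was 1.58 and 1.88 times this sum with the empty vector and 0.641 and 0.816 times with RUNX1::ERG. Whether MYC lies above or below the sum may depend on the lengths used, and the sum was not taken with other lengths. MXD3, whose counts are uncertain, has a canonical transcript of 1.07 kb but 4.74 kb of exons joined.

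For the MLX branch, MYC had 4.66 and 3.58 counts per MLX count with the empty vector and 2 and 1.87 with RUNX1::ERG. MYC to MLXIP went from 1.79 and 2.06 to 0.992 and 1.03 counts. None of these 6 ratios overlapped between the groups, all being lower with RUNX1::ERG. The same held for the ratio of MYC to 91.7% of the 15393 other genes tested, so 6 of 6 is close to that background. No test was made of the ratios. The smallest two-sided p of an exact permutation test at 2 against 2 is 0.333. Among the other pairs, MXD3 per MAX was 0.22 and 0.148 with the empty vector and 0.428 and 0.243 with RUNX1::ERG, and MLXIP per MLX overlapped between the groups, at 2.61 and 1.74 against 2.01 and 1.81.

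**Figure D3:**
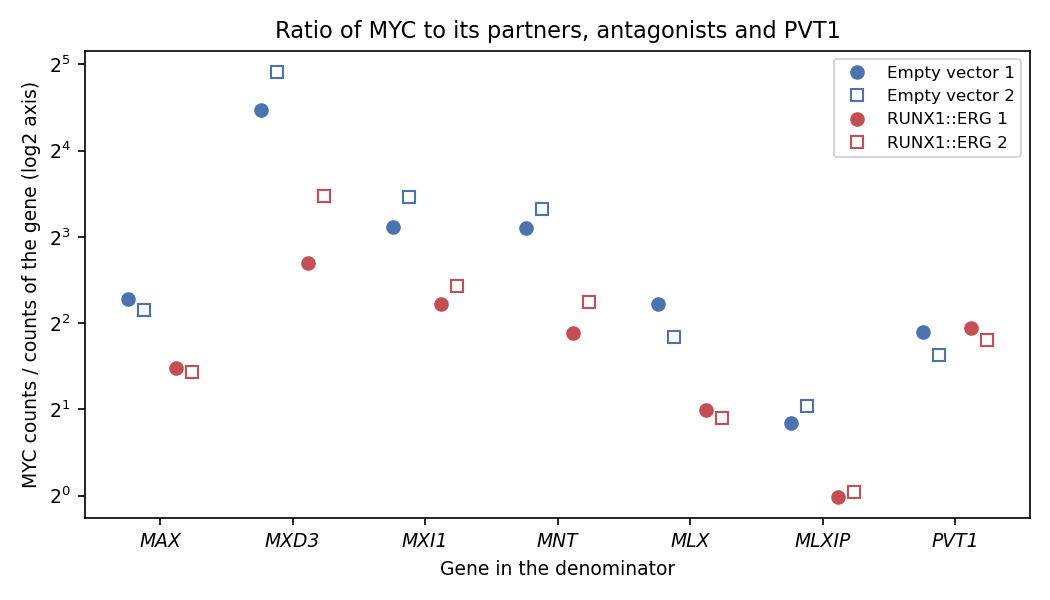
Counts of MYC divided by the counts of the gene named on the x axis, in each library (log2 y axis); blue is the empty vector and red RUNX1::ERG, circles are replicate 1 and open squares replicate 2. The red points are below both blue points for the 6 partners and antagonists, and overlap with them for PVT1.

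The rest of the pathway was read from 8 lists of 77 genes, of which 76 were tested and 5 called, or 6.58%, near the 4.79% of all genes tested. Of the 4 other network genes, MXD1, MXD4 and MGA had log2 fold changes from 0.03 to 0.12, and none of the 4 was called. MLXIPL, the glucose-responsive partner of MLX, was at 22.7 and 7.56 normalized CPM in the empty vector libraries and at 9.7 and 4.62 with RUNX1::ERG (log2 fold change -1.08, adjusted p = 0.25 in edgeR). As with MYCL, empty vector replicate 1 was the highest library, and without it the log2 fold change of MLXIPL was -0.08, whereas without empty vector replicate 2 it was -1.66 and passed (adjusted p = 3.6e-08 in edgeR). With all 4 libraries and no filter on low counts MLXIPL also passed (-1.08, adjusted p = 0.00059 in edgeR). A block for the replicate number gave a pass too (-0.98, adjusted p = 0.012 in edgeR). The other alternatives with all 4 libraries did not, among them the DESeq2 Wald test (adjusted p = 0.63) and limma voom (0.37).

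Among 11 MYC coactivators, RUVBL1, an ATPase of the TIP60 and INO80 chromatin complexes, fell from 129 and 144 to 81.3 and 86.7 normalized CPM (log2 fold change -0.7, adjusted p = 0.03 in edgeR). Its partner RUVBL2 was at 293 and 298 with the empty vector and at 211 and 202 with RUNX1::ERG (-0.51, adjusted p = 0.074 in edgeR), and it was called by the DESeq2 Wald test (0.032) and by edgeR with no filter on low counts (0.036). TRRAP, the scaffold through which MYC reaches acetyltransferases, had the highest log2 fold change of the list, 0.43, and its groups overlapped. RUVBL1 did not pass without empty vector replicate 2 (adjusted p = 0.065) or without RUNX1::ERG replicate 1 (0.16).

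None of the 9 SIN3-HDAC corepressors, the 11 genes of MYC protein turnover or the 11 regulators of the MYC gene and mRNA passed the test. The corepressors ran from -0.13 for RBBP7 to 0.23 for NCOR1 in log2 fold change. In the turnover list, SKP2, a ubiquitin ligase subunit, was lowest at -0.33, and HUWE1, another ligase, was highest at 0.42. Regulators of the MYC gene and mRNA lay between -0.34 for CNBP and 0.08 for CTCF. At an unadjusted p under 0.05 in edgeR, which held for 18% of all genes tested, there was 1 gene in these 3 lists. It was PPP2R5A, a phosphatase subunit that acts on MYC, with a log2 fold change of 0.4.

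Of 20 textbook genes that MYC activates, 2 were called lower and 0 higher. Over all genes tested, 1.15% were called lower and 3.64% higher. A fitted log2 fold change below 0 was found in 19 of the 20 and in 50.2% of all genes tested. TERT, the catalytic subunit of telomerase, was at 7.57 and 8.95 normalized CPM in the empty vector libraries and at 3.96 and 3.07 with RUNX1::ERG (log2 fold change -1.23, adjusted p = 0.027 in edgeR). CCND2, a cyclin of the G1 phase, fell from 48.3 and 36.8 to 25.4 and 23.3 (-0.8, adjusted p = 0.041 in edgeR). The list's median was -0.37, and EIF4E, the cap-binding initiation factor, was highest at 0.04. These calls were not stable. CCND2 was called neither with library totals (adjusted p = 0.067 in edgeR) nor without empty vector replicate 1 (0.11), and neither gene was called without RUNX1::ERG replicate 1 (TERT 0.074, CCND2 0.13) or replicate 2 (TERT 0.0998, CCND2 0.097). The number of the 20 genes called was 8 or 3 when empty vector replicate 1 or 2 was left out, and 0 or 1 when RUNX1::ERG replicate 1 or 2 was. It was 6 without a filter on low counts.

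In the list of MIZ1 (ZBTB17), a partner of MYC in repression, and genes that MYC is known to repress with it, 2 of 7 tested genes were called higher and 0 lower, where 3.64% of all genes tested were called higher. CDKN1A, the cell cycle inhibitor p21, rose from 26.2 and 24.6 to 106 and 76.3 normalized CPM (log2 fold change 1.84, adjusted p = 0.00049 in edgeR). NDRG1, a gene of differentiation and stress responses, rose from 7.46 and 7.52 normalized CPM to 15.8 in both RUNX1::ERG libraries (1.08, adjusted p = 0.016 in edgeR). CDKN2B had 0 counts in all 4 libraries, and CDKN1B was lowest at 0.04. Both RUNX1::ERG libraries lay above both empty vector libraries in 3 of the 7, against 25.1% of all genes tested. These were CDKN1A, NDRG1 and CDKN1C (0.57, adjusted p = 0.14 in edgeR). The reverse held in 0 of the 7, against 22.1%. The groups overlapped in 4 of the 7, ZBTB17 (0.09, adjusted p = 0.85 in edgeR), CDKN1B, GADD45A and CEBPA. NDRG1 was not called without RUNX1::ERG replicate 1 (adjusted p = 0.087).

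TXNIP, the best known target of MLXIP, was at 355 and 177 normalized CPM in empty vector replicates 1 and 2 and at 246 and 275 in RUNX1::ERG replicates 1 and 2. ARRDC4, its paralog and another MLXIP target, was at 46.2 and 22.2 with the empty vector and at 39.9 and 44.3 with RUNX1::ERG. In both, empty vector replicate 1 was about 2 times replicate 2 (2.01 and 2.09), with both RUNX1::ERG libraries between them. None of the 3 MLXIP targets was called in the 4 libraries, though ARRDC4 was once empty vector replicate 1 was left out (log2 fold change 0.92, adjusted p = 0.0056 in edgeR), and their log2 fold changes ran from -0.03 for TXNIP to 0.31 for KLF10.

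**Figure D4:**
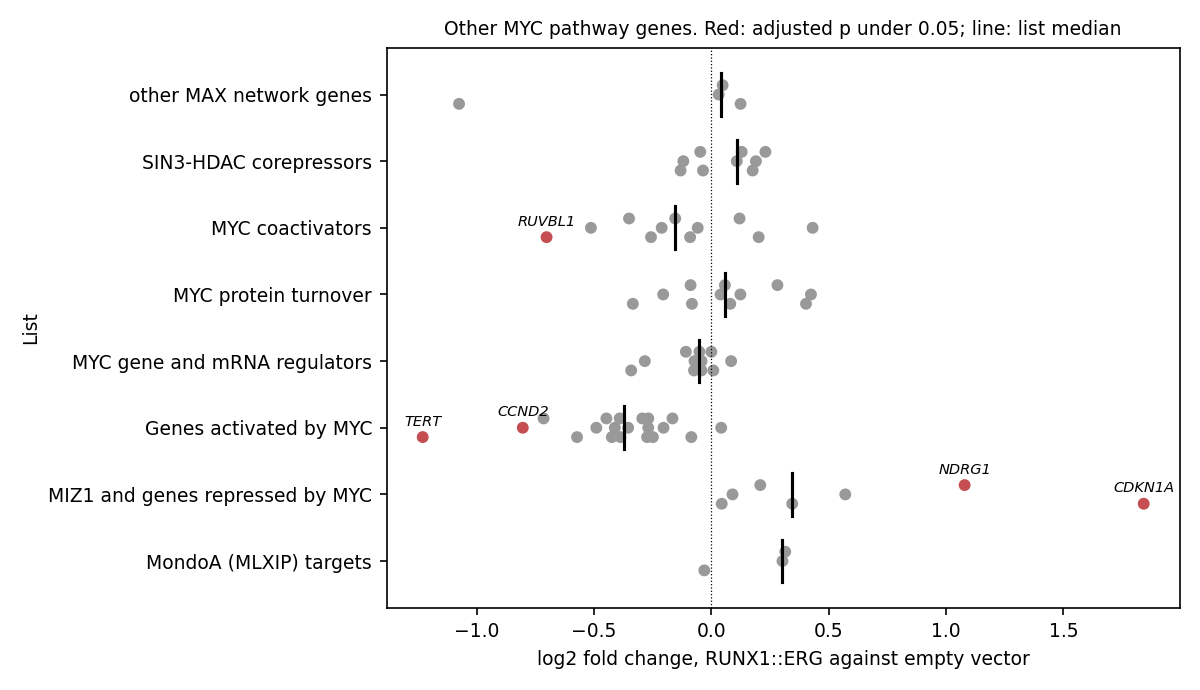
Fitted log2 fold change of RUNX1::ERG against the empty vector (x axis) for each tested gene of 8 lists of the MYC pathway (y axis); each point is a gene, red marks an adjusted p under 0.05, and black lines are list medians. The median of the genes activated by MYC is at -0.37, and that of MIZ1 and the genes repressed by MYC is at 0.34. The latter is the value of CEBPA, which had only 18 to 46 counts in a library (95% interval -0.95 to 1.64).

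The genes whose values across the 4 libraries were closest to those of MYC were MAGEF1, CTSH, TAF4B, TFB1M and SPRY4, among 9138 genes. Likeness was the Euclidean distance between log2 values centred on each gene's mean, and it ran from 0.08 for MAGEF1 to 0.13 for SPRY4. MAGEF1, a member of the MAGE family, was at 47.4 and 45.2 normalized CPM in the empty vector libraries and at 22.3 and 21.9 with RUNX1::ERG. PVT1 came at place 20, at a distance of 0.24. With 4 libraries in 2 groups, such a profile is mostly the size of the fall.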

How the data were processed

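Whole transcriptome libraries of K562 cells with RUNX1::ERG or the empty vector (n = 2 each) were analysed. The authors deposited raw counts per gene, 1 file per library, from paired-end reads of poly(A)-enriched RNA aligned to hg19; the submitters' processing notes name HISAT2 2.2.1 and featureCounts 2.0.1. Strand setting and annotation are not given in the sources used here. Between 66.7% and 68.9% of counts from 1 to 10 were even, a pattern that counting both mates of a pair would give; the sources used here do not state it, and if so fragments are fewer than counts and floors are too low. NCBI gene numbers were joined to symbols of a RefSeq table of GRCh38.p14 (92.2% matched). Positions and transcript lengths are from GENCODE v44 on GRCh37; MLXIP had no canonical transcript there and its longest was used.

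In R 4.3.3, TMM scaling, filterByExpr and the quasi-likelihood test of edgeR 4.0.16 were used, and p-values were adjusted by the Benjamini-Hochberg method over all 15394 genes tested (threshold 0.05). The standard error is the log2 fold change divided by the root of F. The ratios used a prior count of 0.5. Alternatives were other scalings and filters, halved counts, DESeq2 1.42.0, limma 3.58.1 voom, a replicate block and each library left out. The edgeR procedure was also run on simulated counts with the same dispersion for all genes, which is no check of the calls in these libraries. Genes were named by rule: the 10 chosen genes, list genes past the threshold or at the ends of their list, and the 5 nearest to MYC, and others, such as RUVBL2, PPP2R5A and ARRDC4, after their values were seen. The chosen genes and the lists, written from general knowledge, were fixed with earlier results of these data known. The labels number the replicates without saying what a number marks. The p-values rest on the spread between these 2 libraries per group. In edgeR, each gene's spread was also drawn toward the trend over all genes tested.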

Additional observations from a re-analysis of the deposited data

How the results depend on the processing

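MYC and PVT1 were lower and called under every alternative run, with log2 fold changes from -1.12 to -1.07 and from -1.24 to -1.18 before any library was left out, and from -1.16 to -1.08 and from -1.35 to -1.12 with each library left out, where the lone library of a group is assumed to vary like the others. MYCL stayed lower but was not called with library totals (-1.68) or limma voom (-1.51), and ran from -2.25 to -0.82 with a library left out. Near 0, MLX turned to 0.0096 with library totals, and with a library left out MLX ran from -0.19 to 0.13, MNT from -0.12 to 0.18 and MXI1 from -0.35 to 0.051. Of the 10 genes, 2 or 3 were called throughout. The genes called numbered 737 in the main comparison (76% higher), 1500 without a filter (64.1% higher), 1733 with the replicate block (62.4% higher), 1204 with the DESeq2 Wald test, and from 286 (without RUNX1::ERG replicate 1) to 1336 (without empty vector replicate 2, 54.9% higher) with a library left out. Those lower, 177, were 103 with library totals, 538 without a filter, 651 with the block, 403 with DESeq2 and from 58 to 602 with a library left out. The 77 list genes gave 5 calls, 11 without a filter, 15 with the replicate block and from 1 to 13 with a library left out. The cause was not tested. Deviations of same-numbered libraries correlated with r = 0.27, but nothing says that a number marks a shared batch, and the block changed no call among the 10 genes (MYC -1.11, PVT1 -1.22, MYCL -1.55). With it, MLXIPL (-0.98) and RUVBL2 (-0.51) and 10 of the 20 genes activated by MYC were called. In this balanced design a block cannot move a mean log2 ratio, so it is no check of the ratios. Ratios of MYC moved by under 0.01 with other prior counts. Depth limits MYCN and low genes such as MIR1207 and POU5F1B, and with counts halved 14341 genes were tested in place of 15394.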

Other observations

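The profiles closest to MYCL and to PVT1 were looked up in the same way after their values were seen. Nearest to MYCL were TNFRSF10B, a TRAIL death receptor, COLGALT2, a collagen galactosyltransferase, WARS1, a tryptophanyl-tRNA synthetase, and SLC7A5 and SLC6A9, carriers of large neutral amino acids and of glycine. In each of the 5, empty vector replicate 1 was the highest library, as in MYCL. This follows from choosing them by likeness to the MYCL profile and is no separate result. TNFRSF10B had normalized CPM of 81.1 and 31.4 in the empty vector libraries and 16.8 and 15.5 in those of RUNX1::ERG, and SLC7A5 at 366 and 180 against 97.7 and 109. Nearest to PVT1 was VIM, the intermediate filament protein vimentin, with normalized CPM of 706 and 827 against 312 and 365, at a distance of 0.05. S100A11, a calcium-binding protein, followed at a distance of 0.17.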
